A study of Sus scrofa with 20 samples.

Results

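The genes of retinoid transport, storage and activation were examined in backfat and liver, as a set of 9 genes named for their function, by a rule that used no measured value, although earlier results of these data were known. They are RBP4, TTR, STRA6, LRAT, RDH16, RDH10, ALDH1A1, ALDH1A2 and BCO1. Of these, 8 had a row in the count table of 31907 genes, and 7 passed the filter on low counts and were among the 16275 genes tested. RDH16, a retinol dehydrogenase, had no row and was not analysed here, and STRA6 failed the filter and is described by its counts only.

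The samples came from 5 Nanchukmacdon boars, a Korean breed derived in part from the Jeju native black pig, all labelled WT, normal and 22 months old, where the study's methods give another average age. Both tissues shared this genotype, sex and age, no treatment was given, and the single contrast was tissue. Backfat is subcutaneous adipose tissue, and each tissue was sequenced as whole tissue by RNA-seq, giving 5 backfat and 5 liver libraries. Libraries are named here by tissue and by the number in the table's column names (65, 67, 69, 71 and 72), which is read as the boar. Bisulfite libraries of the same tissues were not used here, since the files at hand gave calls by position within the read.

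Vitamin A reaches the liver as retinyl ester, is stored there as ester and is sent out as retinol. In blood, retinol travels on retinol-binding protein (RBP4), which is held in the circulation by transthyretin (TTR), and STRA6 is a membrane receptor that takes retinol from RBP4. Inside cells, LRAT joins retinol to a fatty acid for storage, retinol dehydrogenases such as RDH10 oxidise retinol to retinal, and the ALDH1A enzymes oxidise retinal to retinoic acid, the ligand of nuclear receptors. BCO1 splits beta-carotene into retinal. In the liver, secreted RBP4 and TTR are products of hepatocytes, while most retinyl ester is held in stellate cells. Adipose tissue also stores retinoid and makes RBP4.

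The bases upstream of the annotated starts are shown for 3 members whose levels differed in unlike ways: TTR, the member most abundant in liver, ALDH1A1, the main ALDH1A gene of liver, and ALDH1A2, the single tested member with more RNA in backfat. Each is 250 bases of Sscrofa11.1 before the start of the RefSeq transcript, 5′ to 3′ on the gene's strand, with matches to the searched motifs in capitals. TTR is at chr6:115496338-115503974 on the plus strand with 4 exons, ALDH1A1 at chr1:226163347-226217342 on the minus strand with 13 exons, and ALDH1A2 at chr1:113932722-114037059 on the plus strand with 13 exons.
TTR, chr6:115496088-115496337, plus strand: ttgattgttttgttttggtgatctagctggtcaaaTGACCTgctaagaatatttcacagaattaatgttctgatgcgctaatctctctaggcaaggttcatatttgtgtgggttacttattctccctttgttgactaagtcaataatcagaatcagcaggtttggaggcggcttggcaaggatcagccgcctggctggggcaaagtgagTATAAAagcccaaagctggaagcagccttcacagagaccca
ALDH1A1, chr1:226217343-226217592, minus strand: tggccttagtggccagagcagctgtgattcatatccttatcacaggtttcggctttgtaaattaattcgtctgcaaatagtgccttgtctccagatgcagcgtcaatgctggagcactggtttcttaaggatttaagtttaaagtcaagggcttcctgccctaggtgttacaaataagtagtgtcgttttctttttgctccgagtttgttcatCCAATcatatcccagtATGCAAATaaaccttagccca
ALDH1A2, chr1:113932472-113932721, plus strand: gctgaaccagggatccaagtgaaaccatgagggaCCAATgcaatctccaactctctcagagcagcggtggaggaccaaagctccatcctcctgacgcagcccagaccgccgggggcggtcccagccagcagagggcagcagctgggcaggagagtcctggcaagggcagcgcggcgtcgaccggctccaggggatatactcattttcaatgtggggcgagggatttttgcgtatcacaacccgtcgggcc

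In the TTR window the capitals mark TATAAA, 41 to 36 bases before the start, and, on the other strand, AGGTCA, the half-site of many nuclear receptors, 215 to 210 bases before it. In the ALDH1A1 window they mark CCAAT at 37 to 33 bases and ATGCAAAT, the octamer, at 21 to 14 bases. The ALDH1A2 window held CCAAT alone, at 216 to 212 bases. The GC content was 44% for TTR, 42.4% for ALDH1A1 and 62% for ALDH1A2. Over the 250 bases before the start of 19556 RefSeq genes, searched on both strands, TATAAA was present in 9.9%, AGGTCA in 12.3%, CCAAT in 31.6% and ATGCAAAT in 1.23%. CCAAT and ATGCAAAT were added to the search after these sequences had been seen.

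RBP4 also had TATAAA near its start, at 49 to 44 bases, in a window with a GC content of 74.4%, and LRAT had it far upstream, at 241 to 236 bases and on the other strand at 243 to 238. Of the other motifs searched, TGTTTAC (2.29% of windows), TTGCGCAA (0.169%) and the HNF1 motif (0.0102%), which is GTTAAT, any base and ATTAAC, were found in no member. The same held for a repeat of AGGTCA with a gap of 1 base (0.0358%), 2 bases (0 of 19556 windows) or 5 bases (0.00511%). The windows of STRA6, RDH10 and BCO1 held none of the motifs. For RBP4 and BCO1 the RefSeq transcript start used lay inside the gene span given below, and so did the window. These windows were chr14:105044192-105044441 for RBP4 and chr6:7052204-7052453 for BCO1. The repeats contain AGGTCA, so their matches overlap with those of the half-site. A match is a match of letters only, and binding was not measured.

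Of the 7 tested members, 5 were called as differentially expressed genes (DEGs) with higher expression in liver and 0 with higher expression in backfat. A gene was a DEG where the FDR, the Benjamini-Hochberg adjusted p of edgeR's quasi-likelihood test over all genes, was 0.05 or less and the log2 fold change had a size of 2 or more. Among all genes tested, 11.2% were DEGs with higher expression in liver, 11.1% with higher expression in backfat, and 22.3% in either direction. The 5 called were TTR, ALDH1A1, LRAT, RBP4 and BCO1. By the FDR alone, 6 members were higher in liver and 1 in backfat, where 27.0% and 28.0% of all genes were, 55.0% together.

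The median log2 fold change of the 7 members was -4.32, where a negative value means more RNA in liver, and that of all genes was 0.000145. TTR and LRAT passed the low-count filter only through their liver libraries, and 3 members were called where every library had to hold 10 counts or more. In whole tissue, fewer cells of a type and less RNA per cell cannot be told apart. The boars were sampled in both tissues, and p-values refer to the spread between these 5 animals.

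**Figure D1:**
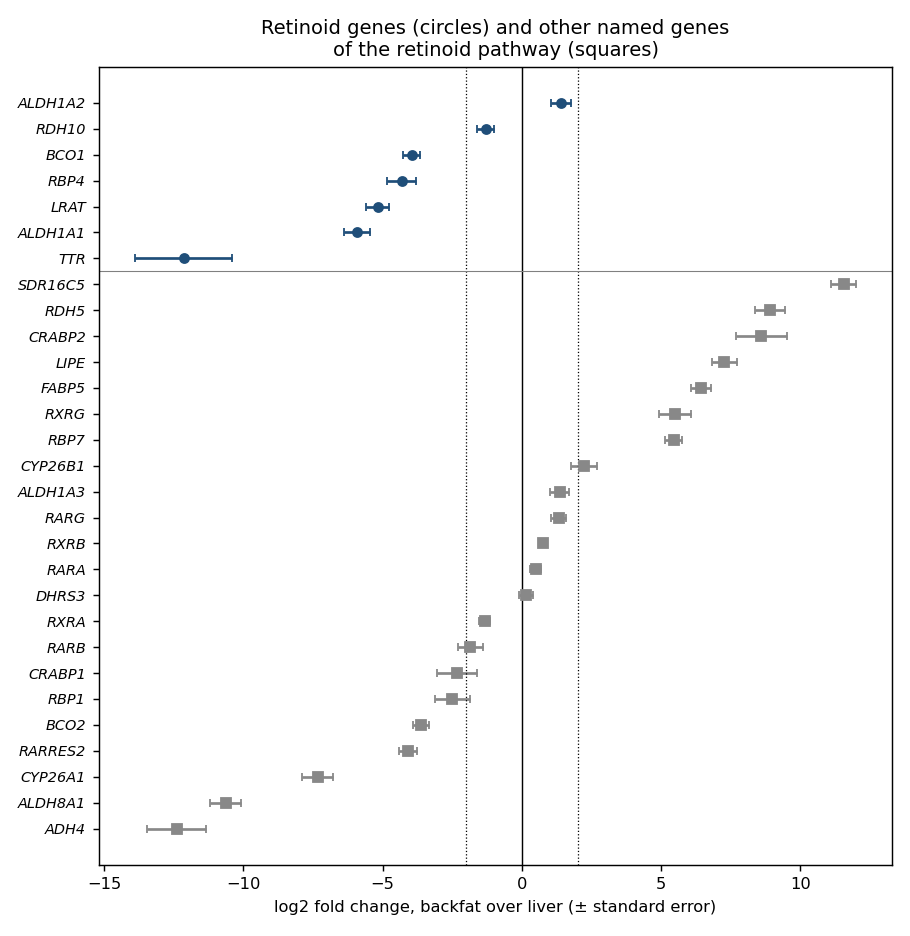
Log2 fold change, backfat over liver, of the 7 tested members (circles) and of 22 other named genes of the retinoid pathway (squares). Bars are ± 1 SE from edgeR's quasi-likelihood test, and values left of 0 are higher in liver. Of the members, TTR lies farthest out at -12.15, and the pathway gene ADH4 is at -12.40. RDH10 at -1.30 is inside the DEG threshold of 2, and ALDH1A2 at 1.41 is the single member right of 0.

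Total counts were 45157114 to 61772737 in backfat and 43820042 to 53768601 in liver. Levels are given as CPM, counts scaled by TMM to a common library total, and means as mean ± SD over 5 libraries. One library stood apart in each tissue. In the library labelled liver 67, the 13 mitochondrial protein genes made up 44.5% of all counts, compared with 6.38% to 20.2% elsewhere, and 8 hepatocyte markers summed to 37840 CPM, 0.312 times the median of the other liver libraries (105805 to 129268). The markers did not fall alike: ALB, SERPINA1, FGB, TF and AHSG were well below the other livers, APOC3 was at 8065 CPM against 8765 or more, APOA1 at 8251 lay above liver 65 (7785), and TAT at 761 lay above all the others (329 to 745). In the library labelled backfat 69, the same markers summed to 607 CPM, 3.26 times the median of the other backfat libraries. In every backfat library most of this sum was APOA1, at 482 CPM in backfat 69 against 167 to 213 in the others. ALB, the serum albumin gene, was at 36.3 CPM against 0.126 to 0.351. AHSG was at 32.2 against 0 to 0.0857 and APOC3 at 13.1 against 0 to 0.0514. TF was at 27.5 against 1.52 to 1.66 and FGB at 15.5 against 0.270 to 0.902. TAT was at 0.269 against 0 to 0.0180, and SERPINA1 at 0.0168 against 0 to 0.0171. SERPINA1 was low even in liver, at 3.54 to 18.1 CPM, so its backfat level, close to 0, cannot show whether it rose. Results that rest on these libraries are given with and without them. The adipocyte markers (6 of 7 in the table) summed to 12360 to 15043 CPM in backfat and 8.19 to 11.5 in liver, so the labelled tissues carried their defining markers.

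Among the blood carriers, RBP4 (ENSSSCG00000010479, chr14:105037360-105044552, minus strand, 6 exons) was abundant in liver and clearly present in backfat. Its backfat levels were 90.6 CPM in boar 65, 94.3 in 67, 177 in 69, 136 in 71 and 82.0 in 72. Its liver levels were 2816 CPM in boar 65, 493 in 67, 2557 in 69, 2486 in 71 and 3257 in 72. Every liver library lay above every backfat library, with liver 67 far below the other livers. The means were 116 ± 39.9 CPM in backfat and 2322 ± 1066 in liver, a ratio of 20.02 and a log2 fold change of -4.32 (SE 0.51, FDR 1.45e-05). Without liver 67 and backfat 69 the ratio was 27.6 and the log2 fold change -4.79. The RBP4 span overlaps PDE6C on the other strand, and the counting took no account of strand and left out reads that fell on exons of both genes.

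TTR (ENSSSCG00000023686) had the largest difference of the 7 members. The liver libraries held 5423 CPM in boar 65, 1448 in 67, 4820 in 69, 11276 in 71 and 7205 in 72, which was 0.105% to 0.731% of all liver counts. In backfat the levels were 0.0338 CPM in boar 65, 0.107 in 67, 6.10 in 69, 0.162 in 71 and 0.240 in 72, from 3, 7, 363, 9 and 14 counts. Backfat 69 thus held most of the TTR counts of backfat, and the tissues were far apart in every boar. The means were 1.33 ± 2.67 CPM in backfat and 6034 ± 3596 in liver, a ratio of 4540 and a log2 fold change of -12.15 (SE 1.76, FDR 7.97e-05).

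That value depended on 1 library: without backfat 69, the backfat mean was 0.136 ± 0.0872 CPM and the log2 fold change -15.47 (FDR 2.96e-07), and without liver 67 as well it was -15.74, with a ratio of 52926. With the boar as a block it was -14.42. TTR in backfat 69 was 45.4 times the median of the other backfat libraries, while ALDH1A1 there was 1.13 times, RBP4 1.91 times and ALDH1A2 1.64 times, and the other tested members were 0.897 to 1.02 times. The part of the hepatocyte markers of backfat 69 in its TTR level was not tested.

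STRA6, a receptor for RBP4 (ENSSSCG00000001909, chr7:59317930-59347274, plus strand, 19 exons), was close to undetected in both tissues. The backfat libraries held 2, 0, 1, 4 and 4 counts and the liver libraries 1, 4, 0, 1 and 0, in the order of boars 65, 67, 69, 71 and 72. The totals were 11 counts in backfat and 6 in liver, and no difference was detectable at this depth. The RNA of STRA6 was thus at the limit of counting in the same libraries in which RBP4 itself ranged from 82.0 to 3257 CPM.

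LRAT (ENSSSCG00000008995, chr8:74412226-74428713, minus strand, 3 exons), which makes the storage ester, was a low-level gene seen mainly in liver. Its liver levels were 8.22 CPM in boar 65, 3.16 in 67, 6.24 in 69, 4.74 in 71 and 5.56 in 72, from 117 to 330 counts. The backfat levels were 0.147, 0.229, 0.151, 0.0540 and 0.171 CPM in the same order, from 3 to 15 counts. The groups did not overlap. The mean was 0.150 ± 0.0630 CPM in backfat and 5.58 ± 1.87 in liver, a ratio of 37.1 (log2 fold change -5.18, SE 0.41, FDR 5.03e-07). Among the stellate cell markers (7 of 8 in the table), HAND2 was at 7.62 to 25.5 CPM in liver and 0 to 0.107 in backfat, and COLEC11 at 43.5 to 90.3 CPM in liver and 0.0457 to 0.634 in backfat. RELN was also higher in every liver, PDGFRB was higher in every backfat library (229 to 290 CPM, against 42.6 to 128), and DES, NGFR and GFAP overlapped. The summed list, most of which was PDGFRB in backfat, did not separate the tissues, at 278 to 369 CPM in backfat and 236 to 339 in liver. The part of stellate cells in the LRAT difference was not tested.

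RDH10 (ENSSSCG00000033669, chr4:62569877-62600981, minus strand, 6 exons), which oxidises retinol to retinal, differed less than the called members. In backfat it was at 14.5 CPM in boar 65, 15.9 in 67, 12.7 in 69, 10.95 in 71 and 13.8 in 72, a narrow range. In liver it was at 38.4 CPM in boar 65, 11.1 in 67, 33.6 in 69, 46.4 in 71 and 37.2 in 72. The ranges overlapped through liver 67, and RDH10 was higher in liver in 4 of 5 boars. The means were 13.5 ± 1.86 and 33.3 ± 13.3 CPM, 2.46 times higher in liver, with a log2 fold change of -1.30 (SE 0.30, FDR 0.00285), below the DEG threshold. Without liver 67 it was -1.56 (FDR 6.32e-06). Scaled by library size alone it was -0.58, with an FDR of 0.129, while under that scaling the median of all genes moved to 0.71.

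ALDH1A1 (ENSSSCG00000028996), which oxidises retinal, was another of the abundant liver members. Its liver levels were 4286 CPM in boar 65, 1968 in 67, 5488 in 69, 3984 in 71 and 3491 in 72. Its backfat levels were 42.4 CPM in boar 65, 37.1 in 67, 67.7 in 69, 77.0 in 71 and 93.7 in 72. The tissues did not overlap. The means were 63.6 ± 23.7 CPM in backfat and 3843 ± 1281 in liver, 60.5 times higher in liver (log2 fold change -5.92, SE 0.47, FDR 4.77e-07).

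ALDH1A2 (ENSSSCG00000025578), which catalyses the same step, was the tested member with more RNA in backfat. Its levels were low in both tissues: 11.8 CPM in boar 65, 7.08 in 67, 10.8 in 69, 3.51 in 71 and 6.07 in 72 in backfat, and 1.42, 3.99, 2.87, 3.03 and 3.50 CPM in liver in the same order. It was higher in backfat in 5 of 5 boars, although backfat 71 lay below liver 67, so that the ranges overlapped. The mean was 7.84 ± 3.41 CPM in backfat and 2.96 ± 0.967 in liver, a ratio of 2.65 and a log2 fold change of 1.41 (SE 0.36, FDR 0.0054). It stayed below the DEG threshold with TMM scaling and passed it with library size alone (2.18). The median of all genes moved to 0.71 under that scaling, and with this median subtracted ALDH1A2 was at 1.47. ALDH1A2 is known from mesothelium and mesenchymal cells as well as from adipose tissue. The 2 mesothelium markers with a row, of 6 listed, summed to 0 to 0.555 CPM in backfat and 0 to 0.947 in liver. The fibroblast markers summed to 46160 to 84578 CPM in backfat and 755 to 1285 in liver, and their part in the ALDH1A2 level was not tested.

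BCO1 (ENSSSCG00000036572, chr6:7008330-7054089, minus strand, 13 exons), the carotene-splitting enzyme, was a DEG whose levels varied within each tissue by a factor of 2.51 in backfat and 2.15 in liver. The backfat libraries held 13.6 CPM in boar 65, 5.41 in 67, 7.95 in 69, 7.89 in 71 and 7.70 in 72. The liver libraries held 112 CPM in boar 65, 75.2 in 67, 155 in 69, 161 in 71 and 156 in 72. The groups did not overlap, and liver 67 was again the lowest liver library. The means were 8.51 ± 3.04 and 132 ± 37.4 CPM, 15.5 times higher in liver (log2 fold change -3.95, SE 0.30, FDR 3.17e-07).

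**Figure D2:**
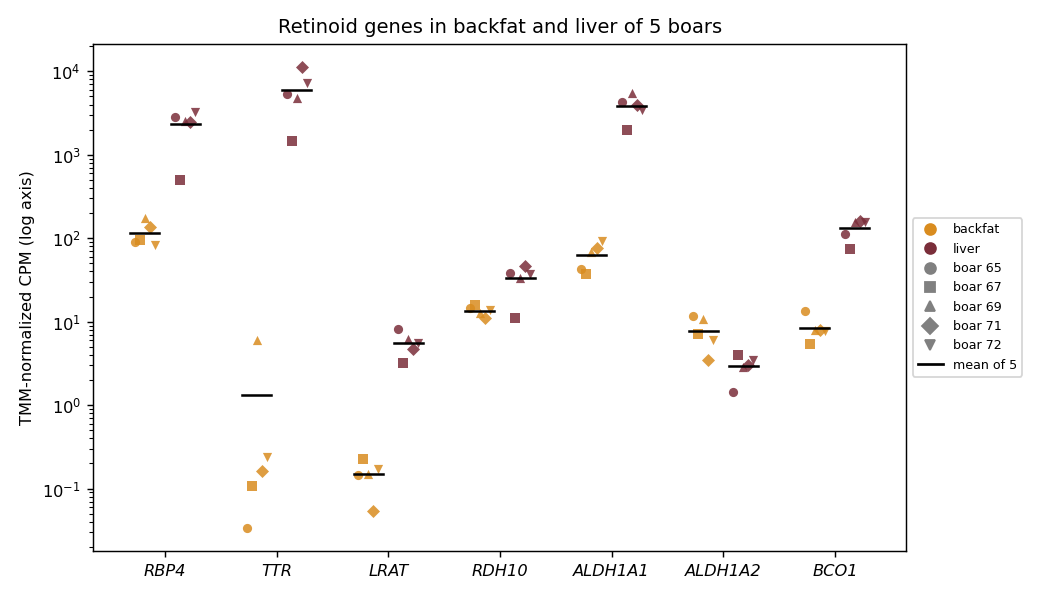
TMM-normalized CPM of the members in each library on a log axis, with backfat and liver side by side and 1 point per library. The groups are apart for RBP4, TTR, LRAT, ALDH1A1 and BCO1, and share part of their range for RDH10 and ALDH1A2. The share of all tested genes whose groups lie apart is not given here, and 55.0% of them passed the FDR.

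Liver 67 had the lowest level of the liver libraries for 6 of the 7 tested members. Relative to the median of the other livers it held 0.184 times the RBP4, 0.229 times the TTR, 0.293 times the RDH10, 0.476 times the ALDH1A1, 0.483 times the BCO1 and 0.535 times the LRAT. ALDH1A2 was the exception, at 1.35 times. The sum of the hepatocyte markers was at 0.312 times, with the spread between markers given above.

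Per 1000 CPM of hepatocyte markers, RBP4 was at 13.04 CPM in liver 67 and 20.2 to 26.6 in the other livers, and TTR at 38.3 against 40.4 to 91.5. RDH10, at 0.292, fell within the range of the others (0.282 to 0.377). ALDH1A1 was at 52.0 against 27.0 to 46.1, BCO1 at 1.99 against 1.06 to 1.31 and LRAT at 0.0834 against 0.0384 to 0.0777, above the others in each case. Since the markers themselves moved unequally in this library, these ratios depend on which markers form the sum. Skeletal muscle markers (2 of 5 in the table) summed to 135 CPM in liver 67, 0.379 to 1.05 in the other livers and 6.17 to 382 in backfat, and their part was not tested.

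**Figure D3:**
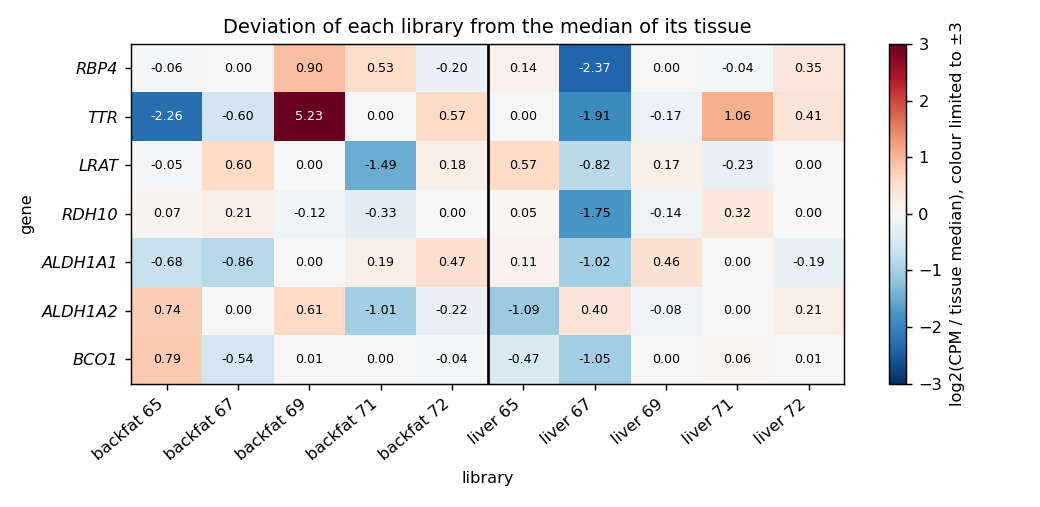
Log2 of each library's level over the median of its own tissue, for the 7 tested members in the 10 libraries. The 2 strongest colours are TTR in backfat 69, above its tissue's median, and RBP4 in liver 67, below it.

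Levels of different genes were compared per kilobase of merged exons. In liver the order of mean CPM per kilobase was TTR at 2811, RBP4 at 636, ALDH1A1 at 512, BCO1 at 24.8, RDH10 at 12.2, LRAT at 1.00, ALDH1A2 at 0.676 and STRA6 at 0.0106. TTR, RBP4 and ALDH1A1 ranked 35, 84 and 100 among the genes tested. TTR exceeded RBP4 in 5 of 5 livers, whereas RBP4 exceeded ALDH1A1 in 3 of 5, so that pair cannot be ordered. ALDH1A1 exceeded BCO1, and RDH10 exceeded LRAT, with no overlap, and LRAT exceeded ALDH1A2 in 4 of 5.

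In backfat the order was RBP4 at 31.8 CPM per kilobase, ALDH1A1 at 8.47, RDH10 at 4.94, ALDH1A2 at 1.79, BCO1 at 1.60, TTR at 0.619, LRAT at 0.0270 and STRA6 at 0.0116. RBP4 ranked 1111 there and exceeded ALDH1A1 in every backfat library with no overlap. RDH10 exceeded ALDH1A2 in every backfat library with no overlap. ALDH1A1 exceeded RDH10 in 4 of 5 with overlapping ranges. The same held for BCO1 over TTR, TTR over LRAT and LRAT over STRA6. ALDH1A2 and BCO1 could not be ordered, with ALDH1A2 higher in 3 of 5. Most of the mean level of TTR there came from backfat 69. By mean, the 3 most abundant members of backfat were thus the carrier RBP4, ALDH1A1 and RDH10, and TTR, first in liver, was near the end.

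These levels depend on the length used. With the longest RefSeq transcript in place of merged exons, ALDH1A1 was divided by 2121 bases and not by 7503, and its mean level was 1812 CPM per kilobase in liver and 30.0 in backfat. The liver order was unchanged for the 7 tested members, and in backfat TTR, at 2.28, came before ALDH1A2 at 1.93 and BCO1 at 1.05.

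The 3 ALDH1A enzymes catalyse the same oxidation, and their shares of the summed CPM per kilobase were compared within each library. ALDH1A1 held 98.9% to 99.8% of the sum in liver, and 50.6%, 40.7%, 63.2%, 74.8% and 78.3% in backfat of boars 65, 67, 69, 71 and 72. No backfat share reached the liver range. The means were 61.5% ± 15.9 in backfat and 99.5% ± 0.366 in liver, a difference of -38.0 percentage points (two-sided exact permutation p = 0.00794, the smallest that 252 arrangements allow, and 0.00794 after adjustment over 3 shares). Paired by boar, the exact sign-flip p was 0.0625, the smallest that 5 pairs allow.

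ALDH1A2 held 13.8% ± 7.21 of the sum in backfat and 0.158% ± 0.112 in liver. ALDH1A3, the other enzyme of the step, held 24.6% ± 12.7 in backfat and 0.306% ± 0.256 in liver. The sum itself was 11.2 to 15.9 CPM per kilobase in backfat and 265 to 733 in liver, so the broader mix of backfat belonged to a far lower total. With the longest RefSeq transcript as the length, the ALDH1A1 share differed by -22.0 points. ALDH1A3 overlaps an unnamed locus on the other strand, and the counting took no account of strand.

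**Figure D4:**
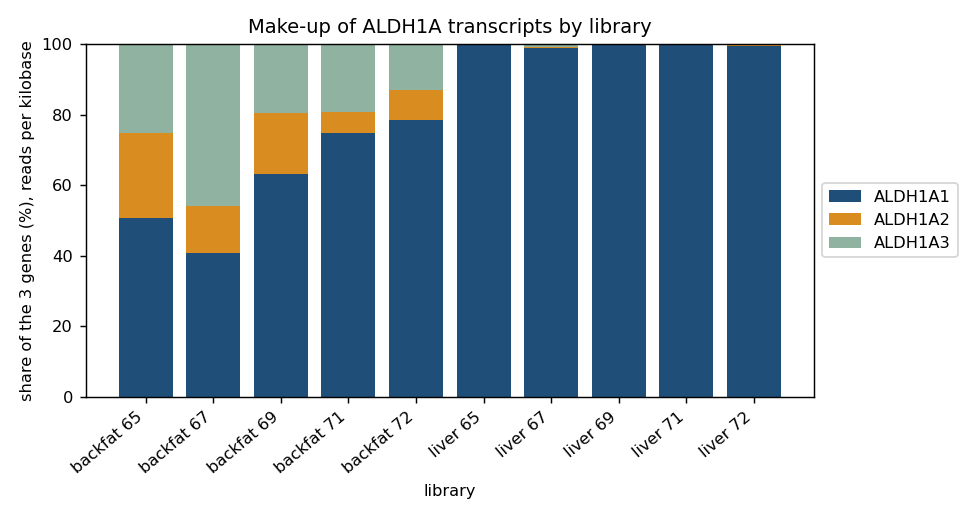
Share of ALDH1A1, ALDH1A2 and ALDH1A3 in their summed CPM per kilobase, as 1 stacked bar per library, in percent. The liver bars are nearly all ALDH1A1, at 98.9% or more, and in backfat ALDH1A1 ranges from 40.7% to 78.3%.

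A list of 51 other genes of retinoid handling was read in the same fit. Of these, 45 had a row and 37 were tested, and the DEGs were evenly split, 9 with higher expression in liver and 9 in backfat. Scaled by library size alone, the split was 5 and 13, while the median of all genes moved to 0.71. Values given below for that scaling include this shift. By the FDR alone the numbers were 14 and 15, where 27.0% and 28.0% of all genes passed, and 8 genes did not pass. CRABP1, ADH4, ALDH8A1 and CYP26A1 among the liver DEGs, and CRABP2, RDH5, SDR16C5 and RXRG among those of backfat, passed the low-count filter only through the tissue where they were high. The median log2 fold change was 0.02. Among all genes, 11.2% and 11.1% were DEGs in liver and backfat.

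Among the 5 tested binding proteins, 2 were DEGs in liver and 3 in backfat, where 11.2% and 11.1% of all genes were. CRABP2, which carries retinoic acid to its receptors, was at 45.9 ± 28.7 CPM in backfat and 0.118 ± 0.208 in liver (log2 fold change 8.61, SE 0.91, FDR 5.4e-06), and its log2 fold change without liver 67 was 10.65. FABP5, a fatty acid carrier that also binds retinoic acid, was at 751 ± 153 and 8.75 ± 3.60 CPM (6.42, SE 0.36, FDR 3.05e-08), and RBP7, a retinol carrier of fat, at 50.5 ± 11.5 and 1.15 ± 0.450 CPM (5.46, SE 0.31, FDR 3.15e-08). CRABP1, another retinoic acid carrier, was higher in liver, at 0.697 ± 0.594 CPM in backfat and 3.49 ± 1.96 in liver (-2.33, FDR 0.0137), with overlapping ranges. It fell below the DEG threshold with library size alone, at -1.70.

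The ester hydrolases LIPE, hormone-sensitive lipase, and PNPLA2, adipose triglyceride lipase, were both DEGs in backfat, 2 of 2 tested. Of all genes, 11.1% were DEGs in backfat. LIPE was at 566 ± 292 CPM in backfat and 3.66 ± 1.00 in liver (log2 fold change 7.27, SE 0.45, FDR 6.71e-08). Both lipases act mainly on stored fat. DGAT1, which can also esterify retinol, passed the FDR in backfat (log2 fold change 1.20), as did SCARB1, a receptor that takes up carotenoids (0.78). LRP2 did not pass the FDR. BCO2, which splits carotenoids off centre, went with BCO1, at 0.684 ± 0.128 CPM in backfat and 8.51 ± 2.21 in liver (-3.63, SE 0.28, FDR 3.7e-07). RLBP1, a retinal carrier of the visual cycle, was a DEG in liver (-2.36) but not with library size alone (-1.70).

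Of 12 tested genes listed as dehydrogenases of retinol and retinal, 3 were DEGs in liver and 2 in backfat, where 11.2% and 11.1% of all genes were. The retinol dehydrogenase RDH5 was at 72.8 ± 35.1 CPM in backfat and 0.154 ± 0.107 in liver (log2 fold change 8.92, SE 0.53, FDR 4.25e-08). SDR16C5, an epidermal retinol dehydrogenase, was at 38.2 ± 7.29 CPM in backfat and had 2 counts over the 5 liver libraries (FDR 2.88e-09). Its count ratio was 3761, with an exact 95% interval of 1041 to 31056 that covers counting error only. In liver, the alcohol dehydrogenase ADH4 was at 708 ± 266 CPM and in backfat at 0.134 ± 0.245 (-12.40, SE 1.06, FDR 8.84e-07), and without backfat 69 its log2 fold change was -14.78. ALDH8A1, an aldehyde dehydrogenase listed here with those of retinal, was at 286 ± 54.2 and 0.184 ± 0.137 CPM (-10.64, SE 0.55, FDR 1.85e-08). Its substrate in these tissues was not measured. The third was RDH11 (-2.19), which was no DEG with library size alone (-1.51).

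ALDH1A3 was at 20.4 ± 8.81 CPM in backfat and 7.93 ± 3.31 in liver (1.36, FDR 0.00422), below the DEG threshold. DHRS3, which reduces retinal back to retinol, had 204 ± 62.5 CPM in backfat and 184 ± 51.4 in liver (0.16, SE 0.26, FDR 0.629). DHRS4, a retinal reductase, passed the FDR in liver (-1.31, FDR 0.00181) with overlapping ranges. Per kilobase its mean was 86.7 CPM in backfat, above the 50.3 of RDH5, and 215 in liver, above the 114 of ADH4.

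The 2 tested CYP26 enzymes, which break down retinoic acid, went opposite ways. CYP26A1 was at 0.254 ± 0.197 CPM in backfat and 41.3 ± 15.7 in liver (log2 fold change -7.34, SE 0.55, FDR 3.06e-07). CYP26B1 was at 3.94 ± 1.76 and 0.832 ± 0.490 CPM (2.25, SE 0.46, FDR 0.00129), and without backfat 67 its log2 fold change was 1.99, just below the DEG threshold.

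Of 8 nuclear receptors, 3 passed the FDR in each direction, where 27.0% of all genes did in liver and 28.0% in backfat. The single DEG was RXRG, where 22.3% of all genes were DEGs in either direction. RXRG was at 9.68 ± 3.84 CPM in backfat and 0.211 ± 0.194 in liver (log2 fold change 5.50, SE 0.59, FDR 6.06e-06). RARG (1.32, FDR 0.00145) and RXRB (0.77, FDR 0.000727) were higher in backfat, while RXRA (-1.33, FDR 8.62e-05) and RARB (-1.85, FDR 0.00322) were higher in liver, as was the orphan receptor NR2F1 (-1.25). RARB became a DEG without liver 71 (-2.09), without liver 72 (-2.04) or without liver 67 and backfat 69 together (-2.03), and RARG with library size alone (2.08). RXRA was at 148 ± 22.2 CPM in backfat and 372 ± 59.1 in liver. Per kilobase it had the highest mean level of the 6 RAR and RXR genes in both tissues, 21.9 CPM in backfat, where RARA reached into its range, and 55.2 in liver. RARA did not pass, at 48.8 ± 13.1 and 34.6 ± 6.62 CPM (0.50, FDR 0.0534), and its FDR lay on either side of 0.05 by setting: 0.0469 with the boar as a block, 0.041 without backfat 67, 0.143 without backfat 69 (0.32) and 0.000114 with library size alone (1.22). Of 3 retinoid-responsive genes, RARRES2, which encodes chemerin, was a DEG in liver, at 957 ± 299.6 CPM against 56.2 ± 15.2 in backfat (-4.09, SE 0.31, FDR 3.5e-07). TGM2 passed the FDR in backfat (1.25) and RARRES1 did not pass.

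The genes most like each tested member were sought among 13750 genes with a mean of at least 1 CPM, by the root mean square difference of log2(CPM + 0.5) over the 10 libraries after each gene's own mean was removed. For RBP4 they were RIMBP2 (0.388), SLC25A48 (0.392) and ANO1 (0.397). For TTR they were GC (0.286), the vitamin D carrier of blood, APOH (0.362) and a gene without a symbol, ENSSSCG00000003086 (0.362). For LRAT they were TGFA (0.110), CLTRN (0.165) and HNF4G (0.189). The added 0.5 CPM shrinks the differences of genes near 0, so a small distance does not mean a like ratio between tissues. LRAT was at 0.150 CPM in backfat and 5.58 in liver, TGFA at 0.0140 and 4.11, CLTRN at 3.04 and 32.9, and HNF4G at 0.0302 and 5.25. RBP4 was at 116 and 2322 CPM, and RIMBP2 at 0.104 and 9.70.

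For RDH10 they were ATRN (0.150), ACAD11 (0.175) and EDEM1 (0.210), and for ALDH1A1 the receptors FGFR4 (0.237) and FGFR3 (0.311) and the mitochondrial carrier SLC25A47 (0.376). For BCO1 they were the transcription factor genes BHLHA15 (0.253) and NR5A2 (0.266) and the adrenergic receptor ADRA1A (0.272). ALDH1A2, whose profile ran the other way, was closest to SLC9B2 (0.317), FBXW8 (0.326) and B3GALT2 (0.341). These distances describe the 10 libraries, which share the tissue difference and liver 67, and carry no test. No member was among the 3 nearest genes of another.

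The remaining marker lists were read once. Endothelial markers (3 of 4 in the table) summed to 630 to 1118 CPM in backfat and 109 to 166 in liver, and macrophage markers to 121 to 240 and 247 to 395. Pancreas markers (3 of 4) summed to 2.79 to 4.80 CPM in backfat and 4.22 to 43.6 in liver. Markers of retinal pigment epithelium, a site of high RBP4, LRAT and STRA6 expression, summed to 13.9 to 21.7 CPM in backfat and 25.4 to 132 in liver, and RLBP1 made up most of that sum. The part of these lists in the members' levels was not tested.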

How the data were processed

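RNA-seq counts of 5 backfat and 5 liver libraries were used. According to the study's methods, the authors trimmed reads with Trimmomatic after FastQC, mapped them with HISAT2 and counted them with featureCounts, and they deposited raw counts per gene. Per the file header, version 2.0.1 counted read pairs on exons of Sscrofa11.1 (Ensembl release 99) without strand, leaving out reads of several genes. Columns name a tissue and a number, which was read as the boar because both tissues carry the same numbers. The labels' replicate numbers could not be matched to boars.

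The analysis used edgeR 4.0.16 in R 4.3.3: filterByExpr, TMM and the quasi-likelihood test with a single term, tissue, and Benjamini-Hochberg adjustment over 16275 genes. A DEG had an FDR up to 0.05 and a log2 fold change of 2 or more in size. The SE came from the fold change and F statistic. The test was checked on simulated counts drawn independently for each library. They had no shared boars and no library that stood apart, so the check does not cover these features of the data. DESeq2 1.42.0 and limma 3.58.1 (voom) were alternatives.

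Libraries with the same number were taken to come from the same boar. The correlation of their deviations from the tissue means was 0.0359 to 0.226, and between different boars -0.243 to 0.152. The boar was used as a block in an alternative.

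Members, pathway list, marker lists (hepatocyte, adipocyte, stellate, fibroblast, mesothelium, endothelium, macrophage, skeletal muscle, pancreas, retinal pigment epithelium) and tests were chosen with earlier results of these data known. Named were all members, the 5 pathway genes with the largest change called in each direction, the CYP26, RAR and RXR genes, CRABP1, CRABP2, RBP7, DHRS3, ALDH1A3, BCO2, and the 3 genes nearest to each member. One gene that this rule names is not reported here. Other pathway genes were named after their values were seen. Positions, transcripts and sequences are from RefSeq on Sscrofa11.1, with genes found by symbol. Count rows were given symbols by Ensembl identifier.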

Additional observations from a re-analysis of the deposited data

Results flagged for a closer look

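In 7 of 62 groups of 5 libraries (8 members and 22 named genes in each tissue, and the ALDH1A1 share), 1 library stood far from the other 4 by Dixon's criterion. Chance meets it in about 1 in 20 groups of independent, normally distributed values. Groups near 0 counts and groups from the same libraries depart from this, so 7 of 62 cannot be set against that rate. Of the members, RBP4 was low in liver 67 at 493 CPM, where the next liver library had 2486, and TTR was high in backfat 69 at 6.10 CPM, where the next had 0.240. ADH4 was high in the same backfat library, at 0.572 CPM against 0.0360 in the next, and so was RARA, at 71.8 against 45.8. CRABP2 was high in liver 67, at 0.486 CPM against 0.0813. SDR16C5 was at 0.0424 CPM in liver 69 and 0 in the other livers, a matter of 2 counts. ALDH1A3 was at 35.7 CPM in backfat 67, with 18.0 in the next backfat library. The low share of ALDH1A1 in backfat 67 includes that value. The causes were not tested.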

How the results depend on the processing

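For the 7 tested members, 138 values under the alternatives kept the direction of the log2 fold change, and 137 kept their side of the DEG threshold. The exception was ALDH1A2 with library size alone (2.18), which gave 1 member called in backfat. With at least 10 counts in every library, 3 members were called in liver, since TTR and LRAT were no longer tested, and the pathway genes fell to 5 called in each direction, with fewer genes tested. Pathway genes called in liver also numbered 5 with library size alone and 5 with glmTreat, which tests against the fold threshold itself. Leaving out each library in turn gave 5 members in liver and 0 in backfat every time, 9 to 11 pathway genes in each direction, and a difference of the ALDH1A1 share between -42.2 and -32.8 points. With the boar as a block, 5 members were called in liver and 0 in backfat, with 9 and 10 pathway genes, and the pairing changed no call of a single member. The difference of the ALDH1A1 share, -38.0 points, has a paired p of 0.0625, which 5 pairs cannot go below. DESeq2 and limma-voom called the same numbers of members. For 22 named pathway genes, 421 of 432 values kept their side and 0 turned direction. The paired fit was chosen for the share after seeing the data. Lengths moved 10 of 16 levels per kilobase beyond 1 SD. Depth limits STRA6, and LRAT and TTR in backfat, which rest on few counts.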

Other observations

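A pair of pathway genes below the filter on low counts, chosen after their values were seen, also differed in counts. RBP2, the retinol carrier of the intestine, had 9 to 39 counts in the liver libraries and 0 to 4 in backfat. RDH12, a retinal reductase known from the retina, had 9 to 74 counts in backfat, 6 in liver 67 and 0 in the other livers. Neither was tested.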
